A study of Mus musculus with 4 samples.

Results

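The mitosis and kinetochore genes are 51 genes, taken by symbol from a deposited table of 53465 genes, that cover the cyclins and kinases of the G2/M transition, the kinetochore, the spindle, cytokinesis and chromosome condensation. All 51 symbols had a row, and all 51 passed the filter on low counts that left 13528 genes for testing. They were measured by RNA sequencing in CD8+ T cells, the cytotoxic T cells, which were isolated from the spleens of mice and cultured for 24 h with beads carrying anti-CD3 and anti-CD28. Both groups had this stimulation, and no unstimulated library was analysed here. The 4 libraries comprise 2 titled WT and 2 titled PP2Cm KO, where PP2Cm is the protein encoded by Ppm1k, a mitochondrial phosphatase that activates the breakdown of branched-chain amino acids. The labels give no age, sex, strain or knockout design, and they name the replicates biological without saying whether each came from a separate mouse, so p-values measure only the spread between these samples.

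The genotype labels are in conflict. The title and the genotype field of each sample name one genotype, and the description code, which is also the column name in the table, names the other. Groups here follow title and genotype field, hence the names labelled WT and labelled KO. Ppm1k itself had 102 and 94 counts in the labelled WT and 157 and 206 in the labelled KO libraries, which is higher in the labelled KO libraries and goes against the label (log2 difference 0.97, SE 0.23, adjusted p = 0.186 by the quasi-likelihood test of edgeR). The labels do not say which part of the gene was deleted. Without labelled WT 1 the difference of Ppm1k passed the threshold at 1.24 (adjusted p = 0.0278). Every difference below is labelled KO minus labelled WT, and every sign would turn if the codes named the genotype. Library totals ran from 12967251 to 17316284 counts, and the members had from 134 to 13963 counts in a library.

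Mitosis is driven by the kinase Cdk1 bound to cyclins A and B, which is held inactive until Cdc25 phosphatases remove its inhibitory phosphates. Kinetochores, the protein plates built on centromeres, then catch spindle microtubules, and the spindle checkpoint blocks the anaphase-promoting complex until every chromosome is attached. Most of these genes are transcribed late in the cell cycle, through the MuvB, B-Myb and Foxm1 proteins, which act at a promoter motif called the CHR element. Another promoter motif, the CCAAT box, is also counted below. CD8+ T cells leave quiescence after stimulation through CD3 and CD28 and then divide rapidly, so these transcripts mark the cells that have entered the cycle. In RNA from a whole culture, fewer cycling cells and less RNA per cell cannot be told apart.

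Promoter stretches of 7 members are printed with and without these motifs. RefSeq windows (GRCm38.p6) were matched for 42 of 51 members, and the stretches run from 160 bases before to 30 bases after the annotated start, 5′ to 3′ on the gene's strand. Ccnb2, Ncapd2, Cdc25b and Birc5 are shown because their differences between the labels had unadjusted p-values under 0.05, and Ccnb1, Cdc20 and Plk1 for comparison, since their libraries overlapped. Kif2c also had such a p-value but is not printed, because its RefSeq start lies 3867 bases inside the gene as the table gives it; its window held a CHR element at −103 and no CCAAT box. Capitals mark a CHR element (TTTGAA or TTCGAA, either strand) or a CCAAT box (CCAAT, either strand).
Ccnb2 (chr9:70421525-70421714, minus strand): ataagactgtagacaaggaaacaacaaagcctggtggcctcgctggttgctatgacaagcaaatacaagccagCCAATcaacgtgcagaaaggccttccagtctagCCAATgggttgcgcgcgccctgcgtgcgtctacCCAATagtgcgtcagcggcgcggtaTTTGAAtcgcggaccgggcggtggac
Ncapd2 (chr6:125191557-125191746, minus strand): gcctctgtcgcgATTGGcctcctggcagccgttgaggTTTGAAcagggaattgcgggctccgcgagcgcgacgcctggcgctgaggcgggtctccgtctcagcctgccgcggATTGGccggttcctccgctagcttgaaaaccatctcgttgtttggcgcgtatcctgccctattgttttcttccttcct
Cdc25b (chr2:131186788-131186977, plus strand): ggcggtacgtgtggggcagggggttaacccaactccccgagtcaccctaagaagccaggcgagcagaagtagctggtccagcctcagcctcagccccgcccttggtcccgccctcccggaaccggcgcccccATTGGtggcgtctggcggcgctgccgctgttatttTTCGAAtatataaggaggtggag
Birc5 (chr11:117849077-117849266, plus strand): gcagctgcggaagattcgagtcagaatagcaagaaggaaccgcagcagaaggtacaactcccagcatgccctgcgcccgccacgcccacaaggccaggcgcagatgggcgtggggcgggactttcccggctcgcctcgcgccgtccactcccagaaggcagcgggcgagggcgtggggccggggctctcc
Ccnb1 (chr13:100786457-100786646, minus strand): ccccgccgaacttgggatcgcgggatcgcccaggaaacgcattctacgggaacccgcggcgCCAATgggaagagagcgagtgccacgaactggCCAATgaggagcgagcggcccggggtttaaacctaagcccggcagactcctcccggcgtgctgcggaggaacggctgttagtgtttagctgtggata
Cdc20 (chr4:118437314-118437503, minus strand): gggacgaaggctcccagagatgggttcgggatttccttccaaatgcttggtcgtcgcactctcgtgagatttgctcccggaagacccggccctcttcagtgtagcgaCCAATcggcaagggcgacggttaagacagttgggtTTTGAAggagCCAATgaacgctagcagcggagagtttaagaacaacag
Plk1 (chr7:122159275-122159464, plus strand): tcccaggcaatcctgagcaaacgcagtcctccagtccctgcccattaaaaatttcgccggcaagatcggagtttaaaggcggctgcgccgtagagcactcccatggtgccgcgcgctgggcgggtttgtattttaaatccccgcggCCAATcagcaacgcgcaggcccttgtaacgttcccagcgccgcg
Ccnb2 carried 3 CCAAT boxes, at −87, −54 and −21, and a CHR element at 5, where 1 is the first transcribed base and a motif is placed by its first base. Cdc25b had a CCAAT box at −28 and a CHR element at 8, and Cdc20 had CCAAT boxes at −53 and −8 around a CHR element at −18. Ccnb1 had CCAAT boxes at −99 and −67 and no match to TTTGAA or TTCGAA in its window, and Birc5 had neither motif. The CHR element of Plk1, at 31, lies just past the printed end.

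Over the 300-base windows (250 bases before to 50 after the start), 30 of 42 members held a CHR element (71.4%), against 19.4% of all 27025 RefSeq promoters. Counting only matches within 50 bases of the start, the shares were 64.3% of members and 5.29% of all promoters. A CCAAT box stood in 31 members (73.8%, all promoters 37.9%), and 27 members held both motifs (64.3%, all promoters 7.7%). For 40 of the 42 the RefSeq start lay within 500 bases of the gene's 5′ end in the table, and Kif2c and Cdca8 were the exceptions. That limit is wider than the 50 bases used above, and all motif positions count from the RefSeq start. It lay 115 bases inside the gene for Ncapd2, 84 for Ccnb1, 270 for Pttg1 and 328 for Kif4. Kif20a, Smc4, Tpx2, Spc24, Incenp, Aurkb, Foxm1, Cdc25c and Ccna2 were not matched. The median log2 difference between the labels was −0.14 over the 30 members with a CHR element and −0.15 over the 12 without. The CHR element was searched as TTTGAA and TTCGAA only. A match is a run of letters and was not measured as a binding site.

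The members were well expressed in all 4 libraries. Their deposited FPKM, a level per kilobase of gene scaled to the library's total, had a median over members of 16.7, against 5.17 over all genes tested, and 44 of 51 lay above the latter. The highest mean levels were those of Incenp (83.6 FPKM), the scaffold of the chromosomal passenger complex, Cdc20 (80.9), the activator of the anaphase-promoting complex, Top2a (80.1), the topoisomerase that untangles sister chromatids, and Mki67 (75.3), which coats mitotic chromosomes. The lowest were Cenpk (1.88), of the inner kinetochore, Anln (3.29), which organises the cleavage furrow, and Pttg1 (3.31), the securin that holds separase inactive. These ranks depend on the gene length implied by the deposited values. It was 3217 bases for Incenp, whose longest coding transcript has 3236, but 10734 for Top2a, whose transcript has 5221. In counts Top2a stood above Incenp in every library, at 10531 to 13963 against 3625 to 4626. Cenpk was low in counts too, with 134 to 190 in a library. Together the 51 genes took 0.795% of the counts of labelled WT 1 (95% exact Clopper-Pearson interval 0.790 to 0.800) and 0.750% of labelled WT 2 (0.746 to 0.754). In labelled KO 1 and 2 they took 0.714% (0.709 to 0.718) and 0.722% (0.718 to 0.727). Both labelled KO libraries were thus under both labelled WT libraries, and the intervals cover counting error only.

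**Figure D1:**
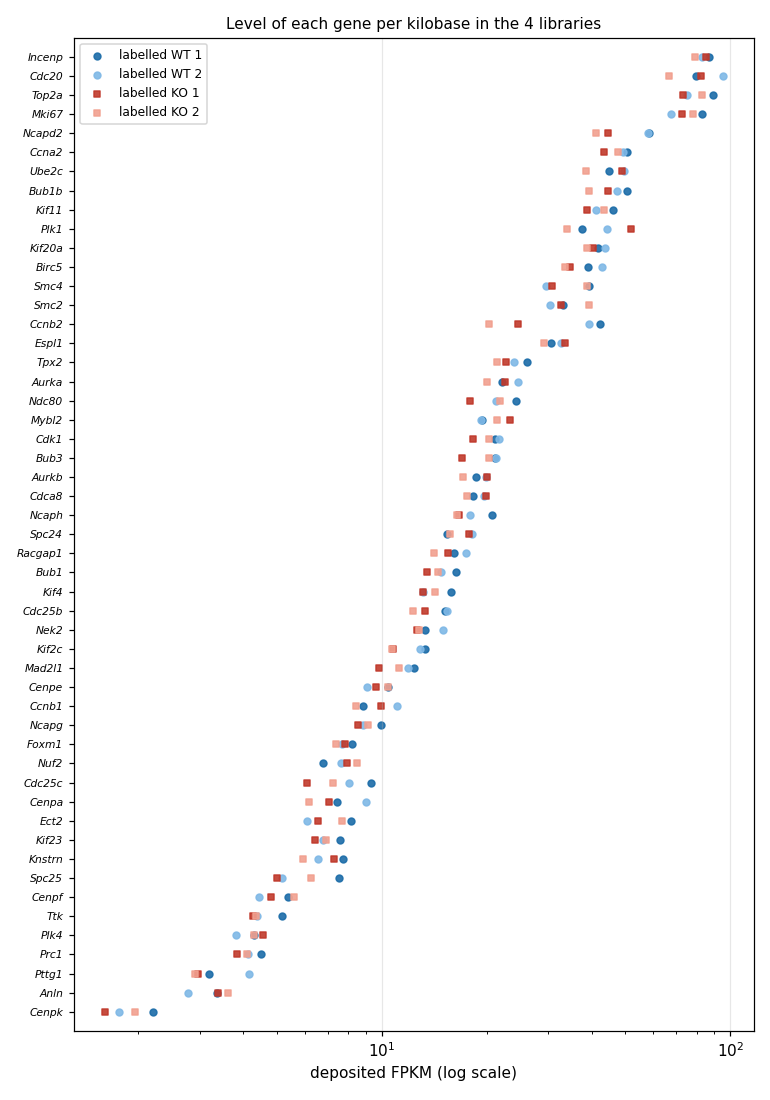
Level of each of the 51 genes in the 4 libraries, as deposited FPKM on a log axis, with genes ordered by their mean. Circles are the labelled WT and squares the labelled KO libraries; the mean levels run from 1.88 for Cenpk to 83.6 for Incenp, and the squares of Ccnb2 and Ncapd2 stand clear to the left of their circles.

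No member passed the test. The quasi-likelihood test of edgeR called 28 of 13528 genes between the labels at an adjusted p under 0.05 (0.207%), and 0 of them were members. At an unadjusted p under 0.05, 5 members were lower in the labelled KO libraries, where 7.23% of all genes were, and 0 were higher, where 5.7% of all genes were. DESeq2 called 276 genes (2.04%), of which 2 were members, Ccnb2 (adjusted p = 0.000753) and Ncapd2 (adjusted p = 0.0288). Groups of 2 against 2 cannot reach p = 0.05 in an exact permutation test, so each call rests on the spread pooled across genes.

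Most members lay to one side of 0. Of the 51 members, 42 had a negative log2 difference, against 51.9% of all genes tested. In 24 members (47.1%) both labelled KO libraries lay under both labelled WT libraries, as in 23.3% of all genes. In 3 members (5.9%) they lay over them, as in 21.5% of all genes. The libraries overlapped in 24 members, and in 7458 of all 13528 genes. The median difference was small, −0.13 on the log2 scale against −0.01 over all genes. For 36 members the fitted difference was smaller than 0.2 either way. The 95% interval stayed within a 1.5-fold change in either direction for 43 of 51 members. The other 8 were Ccnb2, Ncapd2, Cdc25c, Cdc20, Cenpa, Cenpk, Spc25 and Pttg1. Without labelled KO 2 the negative members numbered 37, the fewest when a library was left out.

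**Figure D2:**
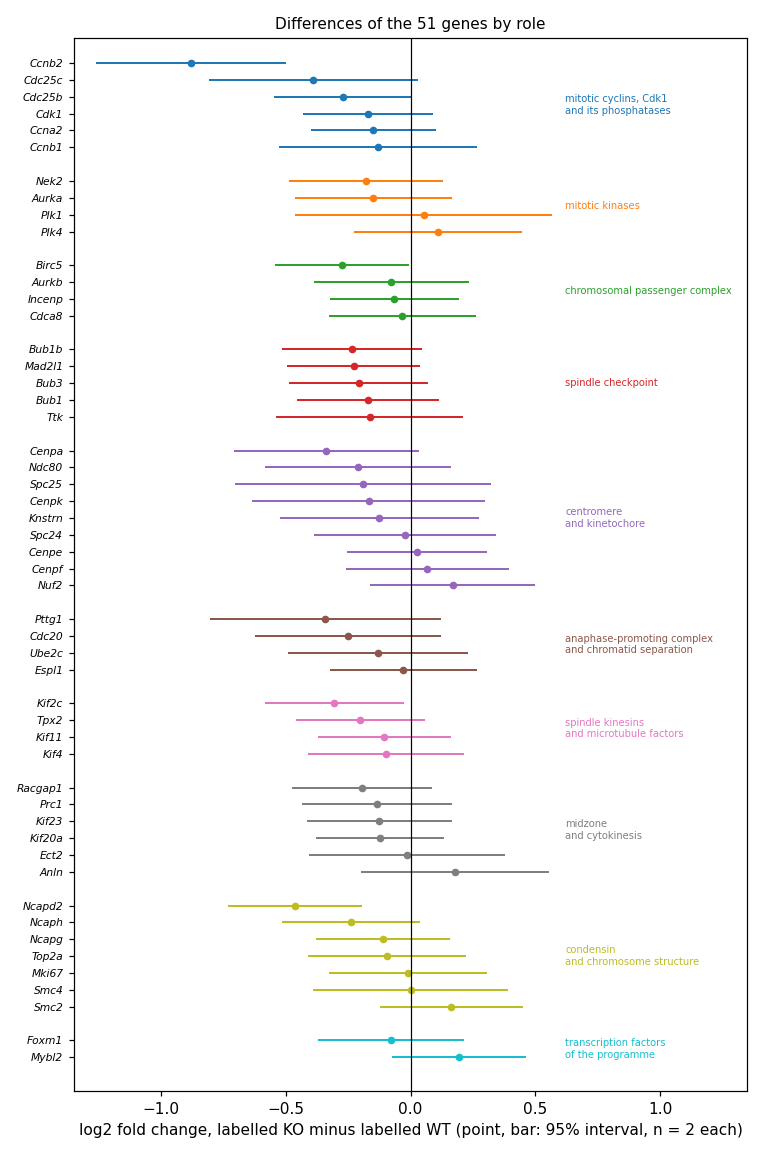
Log2 difference of each of the 51 genes, labelled KO minus labelled WT, grouped by role, with points for the fitted value and bars for its 95% interval (edgeR, 2 libraries per label). Ccnb2 lies farthest from 0 at −0.88 and Ncapd2 next at −0.46, while most intervals cross 0.

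Among the cyclins, Cdk1 and its phosphatases, all 6 values were negative (median −0.22), and in 5 of 6 both labelled KO libraries lay under both labelled WT libraries, as in 23.3% of all genes. Ccnb2 encodes cyclin B2, a partner of Cdk1 in mitosis, and lies on chr9:70407692-70421547. It stood at 64.31 and 61.34 counts per 1000000 of the library (CPM, scaled by TMM) in the labelled WT and at 37.82 and 30.46 in the labelled KO libraries. Both labelled KO libraries were far below both labelled WT libraries, 1.84-fold lower in the fit (log2 −0.88, SE 0.16, 95% interval −1.26 to −0.50). Its adjusted p was 0.0981 with edgeR, and over the alternatives it ran from 0.000753 to 0.482. It passed the threshold with DESeq2, without the filter on low counts (adjusted p = 0.0455) and without labelled WT 2 (adjusted p = 0.0357), and in each of these fits it was lower in the labelled KO libraries.

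Cyclin B1, the other B-type cyclin of mitosis, overlapped between the labels. Ccnb1 stood at 70.61 and 90.6 CPM in the labelled WT and at 80.6 and 66.8 in the labelled KO libraries. The groups overlapped, and the difference was −0.13 (95% interval −0.52 to 0.26). Its value is uncertain, because 46.9% of the 31-base words of its longest coding transcript also occur in other genes, mainly the copy Ccnb1-ps, which had 615 to 1185 counts in a library. Summed with that copy it gave 117.9 and 160.4 CPM against 134.1 and 116.3, a log2 ratio of means of −0.15. The difference between the differences of Ccnb1 and Ccnb2 was not tested.

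Cdc25b, the phosphatase that starts the activation of Cdk1, stood at 102.3 and 106.3 CPM in the labelled WT and at 90.83 and 81.89 in the labelled KO libraries (log2 −0.27, SE 0.11, adjusted p = 0.384 with edgeR). It is among 14 members whose exons overlap a gene on the other strand, here Spef1. The reads of all 14 are uncertain unless the counting was strand-specific. The rest are Ccna2, Cdc25c, Plk1, Nek2, Cdca8, Cenpk, Knstrn, Cdc20, Ube2c, Kif4, Kif20a, Prc1 and Ncapg. Cdc25c, a related phosphatase, was less abundant, at 17.98 and 15.89 against 11.96 and 13.84 CPM (−0.39, 95% interval −0.81 to 0.02). Ccna2, cyclin A2, stood at 316.3 and 314.7 against 274.3 and 294.1 CPM (−0.15), and Cdk1 at 136.8 and 143.8 against 119.4 and 129.9 CPM (−0.17). In Cdc25b, Cdc25c, Ccna2 and Cdk1 both labelled KO libraries were lower, by margins that edgeR did not call.

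The mitotic kinases showed no common direction. Plk1, polo-like kinase 1, which acts from mitotic entry to cytokinesis, stood at 120.9 and 146.6 CPM in the labelled WT and at 169.6 and 107.9 in the labelled KO libraries. The labelled KO libraries were the highest and the lowest of the 4, and the interval of the difference ran from −0.46 to 0.56. Without labelled KO 1 the fitted difference was −0.31, and without labelled KO 2 it was 0.35. Aurka, the centrosomal Aurora kinase, stood at 85.51 and 96.89 against 88.27 and 76.21 CPM (−0.15), Nek2, which splits the centrosomes, at 72.37 and 83.41 against 69.25 and 68.46 CPM (−0.18), and Plk4, which starts centriole duplication, at 50.71 and 45.86 against 54.29 and 49.91 CPM (0.11). Of these 4, Nek2 alone had both labelled KO libraries under both labelled WT libraries.

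In the chromosomal passenger complex, which corrects faulty microtubule attachments, all 4 values were negative and the median was −0.07. Birc5, survivin, which brings the complex to centromeres, stood at 161.6 and 181.6 CPM in the labelled WT and at 145.9 and 137.7 in the labelled KO libraries. Both labelled KO libraries were lower (−0.28, SE 0.11, adjusted p = 0.374 with edgeR). The other members of the complex overlapped between labels: Aurkb, its kinase (−0.08), Incenp, its scaffold (−0.07), and Cdca8, borealin (−0.03).

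In the spindle checkpoint both labelled KO libraries lay under both labelled WT libraries for 5 of 5 members (all genes 23.3%), with differences from −0.24 to −0.17. Bub1b, the checkpoint protein BubR1, stood at 242.6 and 232.4 CPM in the labelled WT and at 217.1 and 186.6 in the labelled KO libraries (log2 −0.24). Mad2l1, the Mad2 protein that sequesters Cdc20, stood at 128.6 and 126.3 against 102.6 and 115.0 CPM (−0.23). Bub3, the adaptor of the Bub kinases, stood at 207.2 and 213.4 against 168.3 and 195.6 CPM (−0.21). Both labelled KO libraries were lower in each, also for Bub1, a kinetochore kinase (−0.17), and Ttk, the Mps1 kinase that starts checkpoint signalling (−0.17). The adjusted p-values of edgeR for the 5 ran from 0.448 to 0.711, so no member of the checkpoint passed the test.

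Centromere and kinetochore genes were divided, with 6 of 9 negative and a median of −0.13. Cenpa, the histone variant that marks centromeres, stood at 71.99 and 89.01 CPM in the labelled WT and at 68.65 and 58.77 in the labelled KO libraries (−0.34, 95% interval −0.71 to 0.03). Ndc80, of the complex that grips microtubules, stood at 53.17 and 47.56 against 39.7 and 47.21 CPM (−0.21). Its partner Nuf2 pointed the other way, at 51.63 and 59.69 against 61.13 and 64.1 CPM (0.17). The remaining members of that complex overlapped between labels, Spc24 at −0.02 and Spc25 at −0.19, so its 4 subunits had no common direction. The motor Cenpe (0.03), the large kinetochore protein Cenpf (0.07), Cenpk (−0.17) and Knstrn, which helps to keep chromosomes aligned (−0.13), overlapped as well.

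The genes of anaphase were negative in 4 of 4, with a median of −0.19. Cdc20 stood at 182.9 and 222.6 CPM in the labelled WT and at 190.8 and 150.1 in the labelled KO libraries (−0.25, 95% interval −0.62 to 0.12), and the groups overlapped. A share of 27.4% of its words occurs elsewhere, mainly in Gm7856, which had 3 to 20 counts in a library. Pttg1 stood at 15.06 and 20.07 against 14.21 and 13.57 CPM (−0.34), the one gene of the role with both labelled KO libraries lower. Ube2c, the ubiquitin-conjugating enzyme of the anaphase-promoting complex, was at −0.13, and Espl1, separase, which cleaves cohesin, at −0.03, both with overlapping libraries.

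Of the spindle genes, Kif2c showed the most even separation. This kinesin depolymerises microtubules at centromeres, and it stood at 82.51 and 81.53 CPM in the labelled WT and at 67.37 and 65.35 in the labelled KO libraries. The libraries of each label were close to each other, and the labelled KO libraries were 1.24-fold lower in the fit (log2 −0.31, SE 0.12, adjusted p = 0.341 with edgeR). Tpx2, which activates Aurora A on the spindle, stood at 187.8 and 176.5 against 165.1 and 151.7 CPM (−0.20). Kif11, the motor that pushes spindle poles apart (−0.11), and Kif4, a chromosome-bound kinesin (−0.10), overlapped.

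The midzone and cytokinesis genes had a median of −0.12, and 5 of 6 were negative. Both labelled KO libraries were lower in 4 of 6 (all genes 23.3%). Racgap1, a subunit of centralspindlin, stood at 188.0 and 207.7 CPM in the labelled WT and at 183.2 and 162.4 in the labelled KO libraries (−0.20). Kif23, the motor subunit of centralspindlin (−0.13), Prc1, which bundles midzone microtubules (−0.14), and Kif20a, a kinesin of the midzone (−0.12), also had both labelled KO libraries lower. Ect2, the exchange factor that triggers the contractile ring, overlapped at −0.01. Anln pointed the other way, at 34.19 and 28.84 against 34.89 and 36.27 CPM (0.18, 95% interval −0.20 to 0.55).

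Condensin genes had no common direction, and the differences between them were not tested. Ncapd2, a regulatory subunit of condensin I, lies on chr6:125168007-125191701 and stood at 520.3 and 528.7 CPM in the labelled WT and at 399.9 and 360.5 in the labelled KO libraries. Both labelled KO libraries were lower, 1.38-fold in the fit (log2 −0.46, SE 0.11, 95% interval −0.73 to −0.20, adjusted p = 0.184 with edgeR, 0.0288 to 0.727 over the alternatives). Its exons overlap those of Scarna10 and Gm28967 on the same strand, so the reads of that stretch are uncertain, as they are for Top2a and Foxm1, the other members with such an overlap. Ncaph and Ncapg, the other regulatory subunits of condensin I, were at −0.24 and −0.11, again with both labelled KO libraries lower. The ATPase subunits did not follow, with Smc2 at 197.9 and 185.3 against 197.4 and 231.5 CPM (0.16) and Smc4 at 320.1 and 247.5 against 254.2 and 313.2 CPM (0.00).

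The 2 genes most used to mark proliferation overlapped between the labels. Mki67, the Ki-67 antigen, stood at 853.1 and 712.1 CPM in the labelled WT and at 756.8 and 796.6 in the labelled KO libraries (−0.01, 95% interval −0.32 to 0.30). Top2a stood at 954.6 and 822.0 against 791.8 and 872.1 CPM (−0.09, 95% interval −0.41 to 0.22). For both, the interval leaves room for a change of at most 1.5-fold in either direction.

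**Figure D3:**
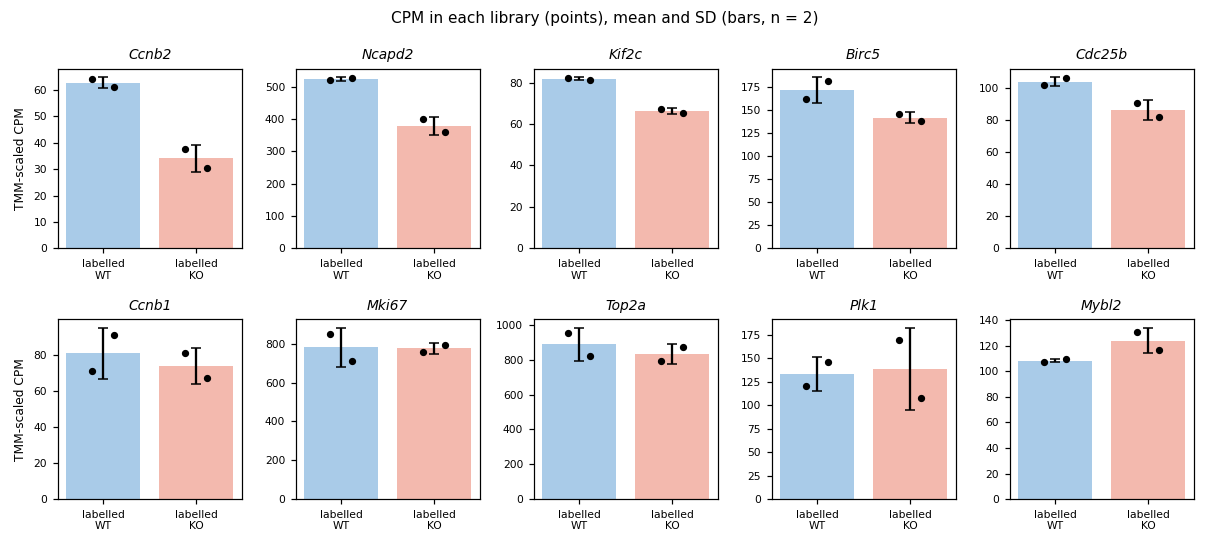
CPM, scaled by TMM, of 10 genes in each library (points), with bars for the mean and error bars for the SD of 2 libraries per label; each panel has its own axis from 0. The upper 5 are the genes with an unadjusted p under 0.05, in which the points of the labels are apart, and the lower 5 include Mki67, Top2a and Plk1, in which they overlap.

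Of the transcription factors, Mybl2, B-Myb, stood at 107.5 and 109.5 CPM in the labelled WT and at 131.1 and 117.0 in the labelled KO libraries (0.19, SE 0.11, adjusted p = 0.526 with edgeR). It is among the 3 members, with Nuf2 and Anln, in which both labelled KO libraries were higher. Foxm1 stood at 74.45 and 71.58 against 71.96 and 66.18 CPM (−0.08), with overlap. Part of the sequence of Mybl2 (25.3% of its words) occurs in Gm3320.

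Libraries of the same label differed from each other along a pattern that the members shared. Across the 51 genes, the log2 difference of labelled WT 1 from labelled WT 2 correlated with that of labelled KO 2 from labelled KO 1 (Pearson r = 0.65 across genes, which are not independent), whereas across all genes tested r was 0.17. A group of 20 members was higher in labelled WT 1 and in labelled KO 2, among them Mki67, Top2a, Smc2, Smc4, Cenpe, Cenpf, Ect2 and Kif11. Another 18 were higher in labelled WT 2 and in labelled KO 1, among them Plk1, Cdc20, Ccnb1, Aurka, Aurkb, Ube2c, Cenpa and Espl1. These are 39.2% and 35.3% of the members, against 31.2% and 30.4% of all genes.

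The groups differed in base composition and length. The median GC content of the longest coding transcript was 43.3% in the former and 52.7% in the latter, and the median transcript length 4199 and 2339 bases. All genes tested split in the same way, with medians of 46.3% and 53.2% GC and of 3470 and 2051 bases. Over the members, GC content correlated with the difference within the labelled WT pair at r = −0.51 and within the labelled KO pair at r = −0.74. The same held more weakly over all genes, at −0.14 and −0.28. The difference between labels had an r of −0.14 with GC content and 0.38 with log length over the members, against −0.12 and 0.13 over all genes. Over the members, the median size of the difference was 0.16 on the log2 scale within the labelled WT pair and 0.15 within the labelled KO pair. Plk1 was the extreme, 0.65 lower on the log2 scale in labelled KO 2 than in labelled KO 1, more than the difference between labels of any member but Ccnb2. The part of base composition and length in the differences between labels was not tested.

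**Figure D4:**
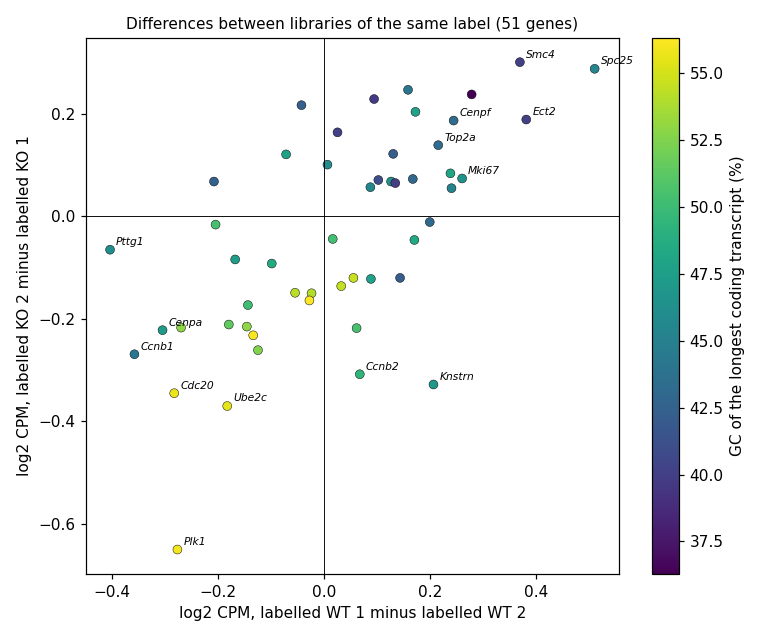
Differences between libraries of the same label for the 51 genes, in log2 CPM, with labelled WT 1 minus 2 on the horizontal and labelled KO 2 minus 1 on the vertical axis, coloured by the GC content of the longest coding transcript. Genes of high GC content such as Plk1, Cdc20 and Ube2c lie at the lower left and genes of low GC content such as Smc4 and Ect2 at the upper right (r = 0.65 across genes).

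Mitosis genes outside the 51 gave small differences as well. Over 122 further genes of the kinetochore, spindle, anaphase-promoting complex, cohesin, the mitotic entry switch and the DREAM complex, edgeR called 0 and DESeq2 called 1 (2.04% of all genes). At an unadjusted p under 0.05 with edgeR, 8 were lower, where 7.23% of all genes were, and 1 was higher, where 5.7% were, so these shares were no larger than over all genes. Their median difference was −0.07, with 81 negative. Both labelled KO libraries were lower in 44 of 122 (all genes 23.3%) and higher in 6 (all genes 21.5%). Of 32 other kinetochore genes, 24 were negative (median −0.07), and Hjurp, the chaperone that loads Cenpa, stood at 334.4 and 218.7 against 186.3 and 203.0 CPM (−0.51, adjusted p = 0.353 with edgeR), followed by Pmf1 of the Mis12 complex (−0.30). Of 31 other spindle and cytokinesis genes, 23 were negative (median −0.10).

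The lowest p of these lists belonged to Depdc1b, which stood at 27.97 and 18.31 CPM in the labelled WT and at 11.5 and 11.77 in the labelled KO libraries (−0.99, SE 0.23, adjusted p = 0.175 with edgeR and 0.0368 with DESeq2). Nusap1, a spindle microtubule bundler, stood at 126.8 and 84.12 against 60.68 and 69.5 CPM (−0.69, adjusted p = 0.246 with edgeR). In Hjurp, Depdc1b and Nusap1 labelled WT 1 was well above labelled WT 2, and both labelled KO libraries were under both. Of 17 genes of the anaphase-promoting complex and its regulators, 13 were negative (median −0.07), with Fzr1, the Cdh1 activator (−0.30), and Anapc13 (−0.38) lowest in p.

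The list of cohesin, shugoshin and the remaining condensin genes had 12 of 18 positive and a median of 0.04. The libraries of the labels overlapped in 13 of 18, as in 7458 of all 13528 genes. Both labelled KO libraries were lower in 3 (all genes 23.3%) and higher in 2 (all genes 21.5%). Wapl, which releases cohesin from chromosomes, stood at 163.9 and 168.6 CPM in the labelled WT and at 198.6 and 212.4 in the labelled KO libraries (0.31, SE 0.10, adjusted p = 0.298 with edgeR). The condensin II subunit Ncaph2, in the same list, was at −0.27. The mitotic entry switch had 7 of 12 negative (median −0.05), with Ccnf, cyclin F (−0.26), and Pkmyt1, an inhibitory kinase of Cdk1 (−0.28), lowest in p. The DREAM complex had 8 of 12 negative (median −0.11), with Rbl2, the pocket protein p130 (−0.39), and E2f5 (0.42) lowest in p.

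Genes of DNA replication, which act before mitosis, gave values like those of the members: 24 of 30 were negative, the median was −0.13, and both labelled KO libraries were lower in 13 (all genes 23.3%). Lig1, the replicative DNA ligase, stood at 356.6 and 375.6 against 310.6 and 287.8 CPM (−0.29, adjusted p = 0.329 with edgeR), and Mcm6, of the replicative helicase, at 857.8 and 931.2 against 790.1 and 679.4 CPM (−0.28). Whether the mitosis list differs from the replication list was not tested.

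Marker sums of several cell types also differed between the labels. The summed level of 10 CD8+ T cell markers was 4079 and 3838 CPM in the labelled WT and 3536 and 3383 in the labelled KO libraries, and none of the 10 was at 0 in every library. In 5 of the 10 both labelled KO libraries were lower (all genes tested 23.3%), among them Thy1 (961 and 995 against 785 and 795 CPM) and Lck. The other 5, among them Cd8a (542 and 523 against 547 and 511 CPM), Cd3e and Cd2, overlapped. The 8 B cell markers, none at 0 in every library, had sums of 425.7 and 364.6 against 303.2 and 268.5 CPM, nearly all from Ighm. Stromal and endothelial markers summed to 37.03 and 31.2 against 18.05 and 19.04 CPM, nearly all from Pecam1, with Cdh5 at 0 in every library, and erythroid and platelet markers to 2.61 and 4.95 against 1.43 and 2.01 CPM. NK and gamma-delta T cell markers summed to 9.834 and 11.24 against 14.81 and 12.04 CPM, mostly from Trdc (8.07 and 6.95 against 10.38 and 9.21 CPM), while Ncr1, Klrb1c and Tcrg-C1 overlapped. The sums for CD4 T cells, at 14.8 to 23.2 CPM, myeloid cells, at 2.38 to 6.36 CPM with S100a9 at 0 in every library, and dendritic cells, at 7.07 to 12.2 CPM, overlapped between labels. The part of cell composition in the members' values was not tested.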

How the data were processed

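Per the file headers, the authors deposited one table with counts per gene, which are whole numbers with no normalization, and FPKM, the count per kilobase, scaled to the library's total; the gene length implied by the 2 was equal between libraries to within 0.00385%. Per the submitters' processing notes, kallisto and the build GRCm38 were used, with no role or version. For the counting, strand use, annotation and filters: not given in the sources used here. Per the labels' protocols, libraries were stranded and made from purified mRNA. Columns were joined to samples through the description codes, and 8 other columns of values were not used. Loci equal those of GENCODE M21 for 47 of 51 members, and that annotation gave overlaps, lengths, GC content and shared 31-base words.

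Counts were filtered with filterByExpr, and edgeR 4.0.16 in R 4.3.3 gave TMM factors and a two-sided quasi-likelihood test, with Benjamini-Hochberg adjustment over 13528 genes and a threshold of 0.05. The biological coefficient of variation was 15.9%. The chi-square over its degrees of freedom was 19.2 and 13.7 for the labelled WT and KO pairs, so the replicates are not repeats of a library. Alternatives used DESeq2 1.42.0, other scalings, no filter, limma 3.58.1 on log2(FPKM + 1) and log2(FPKM + 0.1), a replicate block and leaving out each library. The code was checked on simulated data with independent genes and a smaller spread than that of these libraries. The members and lists were chosen with earlier results of these data known; all 51 members are named, and of each other list the 2 genes with the lowest p.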

Additional observations from a re-analysis of the deposited data

How the results depend on the processing

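The number of genes past the threshold depended on the setting: 28 with edgeR and TMM, 276 with DESeq2, 146 with no filter on low counts, 5 on log2(FPKM + 1), 4 on log2(FPKM + 0.1), and 8 to 304 when leaving out a library in turn. Where an arm then holds 1 library, it is assumed to vary like the other group. With the replicate number as a block 123 genes passed, 0 of them members; nothing in the labels says that a number pairs libraries, and same-numbered libraries deviated with r = −0.168. A block with the numbers crossed, chosen after seeing the data, gave 12 genes and 0 members. The members past the threshold numbered 0 with edgeR, 2 with DESeq2 (Ccnb2 and Ncapd2), 1 with no filter (Ccnb2), and 0 to 1 when leaving out a library (Ccnb2 without labelled WT 2). The cause was not tested. The median of the members ran from −0.169 to −0.113 when leaving out a library. The Ppm1k difference, 0.97, ran from 0.73 to 1.24 when leaving out a library, and it was 1.24 without labelled WT 1. On log2(FPKM + 1) the Ppm1k difference was 0.59. The count of members lower in both labelled KO libraries, 24, was 21 to 26 over the other scalings, filters and units.

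Of 51 members, 34 kept their direction in all 11 alternatives other than the crossed block, and the 17 that did not had differences of at most 0.191 in size. Leaving out a library in turn gave −0.292 to 0.062 for Ccnb1, −0.310 to 0.348 for Plk1, −0.214 to 0.053 for Aurkb, −0.134 to 0.007 for Incenp, −0.144 to 0.077 for Cdca8, −0.056 to 0.118 for Cenpe, −0.051 to 0.201 for Cenpf, −0.146 to 0.120 for Spc24, −0.430 to 0.095 for Spc25, −0.300 to 0.037 for Knstrn, −0.328 to 0.049 for Ube2c, −0.151 to 0.087 for Espl1, −0.214 to 0.032 for Kif4, −0.194 to 0.195 for Ect2, −0.173 to 0.203 for Smc4, −0.198 to 0.023 for Top2a and −0.135 to 0.131 for Mki67. Besides, Ect2 turned to 0.003 with library totals alone, 0.010 on log2(FPKM + 1) and 0.012 on log2(FPKM + 0.1), Mki67 to 0.007, 0.013 and 0.013 likewise, and Smc4 to −0.014 with upper-quartile scaling and −0.010 with no filter.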
